A study of Mus musculus with 16 samples.

Results

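The injury response of muscle stem cells (MuSCs) labelled TRF2 knockout was measured as the change in RNA between 4 libraries with this label sorted at 3 days post-injury (DPI) and 4 sorted from uninjured muscle. These 8 libraries were taken by their labels from the 16 of the series. The other 8 are wild-type control MuSCs at the same 2 stages, 4 per stage, and they enter only where the response of the knockout is set beside that of the control. The knockout, named TRF2 MuSC-cKO in the study's methods and cKO here as the label of these libraries, came from mice in which a tamoxifen-inducible Cre driven by the Pax7 gene removes the floxed TRF2 gene (Terf2), so that the deletion is confined by design to Pax7-expressing cells and their progeny. All mice were on a C57BL/6 background. Injury was an injection of notexin, a snake venom toxin that destroys muscle fibres, into the tibialis anterior (TA) muscle. The general isolation method of the study takes all hindlimb muscles; which muscles gave the cells of these libraries is not given in the labels, so whether injured and uninjured muscle were mixed at 3 DPI is not known here. Cells were sorted as negative for CD45, CD31, CD11b and Sca1 and positive for α7-integrin and for VCAM or CD34. Age and sex of the animals behind each library, and whether each library is a separate animal, are not given in the labels, so that the tests measure the spread between these libraries.

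TRF2 is a subunit of shelterin, the protein complex that caps telomeres, and its loss from telomeres is known to activate the DNA damage response and p53. p53 in turn transcribes genes that arrest the cell cycle (Cdkn1a, encoding p21), restrain growth signals (Phlda3), feed back on p53 (Ccng1, Mdm2) or signal death (Eda2r, Bax). Quiescent MuSCs express Pax7 and Notch target genes and, after injury, leave quiescence, divide and either differentiate under Myod1 and Myog or return to quiescence, in a tissue that fills with macrophages during the first days.

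The 8 libraries held between 665757 and 976957 estimated counts. Replicate 3 of the cKO 3 DPI group stood apart from its group. It had a count for 15387 genes, against 19996 to 21189 in the other 3 injured cKO libraries and 21065 to 21333 in the uninjured ones. Its log2 CPM (counts per 1000000) correlated with those of its own group at r between 0.457 and 0.479 across genes. The other 3 injured libraries correlated with each other at 0.682 to 0.751, and the uninjured libraries at 0.789 to 0.821. The counts over all genes and those of many gene lists are therefore given with and without this library. The summed level of 1489 olfactory and vomeronasal receptor genes stands here for background reads. It was 4852 to 6137 CPM in uninjured cells and 4742, 6321, 7285 and 4824 CPM in injured replicates 1 to 4, highest in replicate 3.

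Terf2 itself did not separate the groups. It was at 57.0, 52.3, 67.2 and 30.6 CPM in the 4 uninjured cKO libraries and at 56.1, 23.8, 74.4 and 96.0 CPM in the libraries labelled TRF2 knockout 3 DPI (log2 fold change 0.27 ± 0.45, SE, edgeR adjusted p = 0.853). The groups overlapped. On a scale common to all 16 libraries, uninjured cKO libraries (27.2 to 58.7 CPM) were below all uninjured control libraries (66.3 to 94.5 CPM). At 3 DPI the direction was the other one: the cKO libraries were at 52.6, 21.9, 66.9 and 89.7 CPM (mean 57.8) and the control libraries at 35.5 to 48.6 CPM (mean 43.8), so that 3 of 4 libraries labelled knockout exceeded every control library. Read over its whole length, the gene thus goes with the knockout label in uninjured cells and against it in 3 of the 4 injured libraries. Counts per gene do not tell exons inside a floxed segment from those outside it. The other 6 shelterin genes were not called either (0 of 7 members; 0 had an unadjusted p under 0.05, and limma and DESeq2 called 0), those of smallest p being Terf1 (-1.47 ± 0.84) and Pot1a (-0.97 ± 0.69).

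The labelled cell type was checked against its markers. Pax7, the transcription factor that defines MuSCs, was at 796, 986, 823 and 890 CPM in the uninjured libraries and at 26.2, 143, 138 and 71.1 CPM at 3 DPI. Vcam1 and Itga7, which encode the proteins of the sorting gate, were detected in all 8 libraries. Vcam1 was at 163 to 287 CPM in uninjured cells and at 37.4 to 87.3 CPM at 3 DPI (-1.52 ± 0.32, edgeR adjusted p = 0.0102), and Itga7 at 166 to 287 and 44.9 to 105.2 CPM (also called lower, adjusted p = 0.0182), with no overlap between the groups for either. Each of these calls was lost in 7 of the 8 fits that left out 1 library. Cd34, the other positive marker of the gate, overlapped between the groups, at 59.7 to 102 CPM before and 35.8 to 109 CPM after injury, as did Ly6a, which encodes the removed antigen Sca1, at 5.81 to 29.9 and 5.51 to 44.9 CPM. Ptprc and Itgam, which encode CD45 and CD11b, the antigens used to remove leukocytes, were at 12.2 to 32.8 and 12.2 to 32.5 CPM in uninjured cells and at 109 to 179 and 236 to 455 CPM at 3 DPI. Transcripts of cells that the gate removes were thus present in all 4 injured libraries. In these bulk samples, a change in the share of a cell type and a change in RNA per cell cannot be told apart.

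Injury changed 589 of 14578 genes tested in cKO MuSCs at an adjusted p under 0.02 and a change of more than 1.5 times. Of these, 354 rose (2.43% of those tested) and 235 fell (1.61%), and 2049 genes (14.1%) had no overlap between the groups. Without replicate 3, 803 of 15547 genes rose (5.16%) and 513 fell (3.3%); 354 and 234 of these, respectively, were also called with all libraries, and none changed direction. The single gene called only with replicate 3 was Pakap, a gene for kinase anchoring proteins, at 273, 197, 139 and 299 CPM before and 39.9, 22.6, 0 and 0 CPM after injury. The common biological coefficient of variation was 0.523 with the library and 0.375 without it. In control MuSCs, 10.8% of the genes tested rose and 9.46% fell. Counts of called members per list are to be read beside these shares over all genes. A sample code in the labels, whose meaning is not given, was shared between the stages by uninjured replicate 4 and injured replicates 3 and 4 only. With this code as a term, 15 genes rose and 22 fell, 36 of these 37 being among the 589, and the fold change then rests on these 3 libraries. Of 117 named genes called with all 8 libraries, 27 lost the call when 1 of them was left out, 21 of these in 4 or more of the 8 omissions.

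Part of the p53 target genes fell. Of 35 members of this list, 33 were tested, 6 fell and 0 rose, against a background of 1.61% and 2.43%, with a median log2 fold change of -0.74 (0.0071 over all genes tested). Summed over the list, the level was between 4201 and 4578 CPM in the 4 uninjured libraries and between 1645 and 1760 CPM in the 4 injured ones. Replicate 3, at 1645 CPM, sat with its group. Without replicate 3, 9 members fell.

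Cdkn1a, the p53-induced inhibitor of cyclin-dependent kinases, lies on chr17:29090976-29100727 of GRCm38 (plus strand, protein coding). Its level was 496, 647, 515 and 568 CPM in the uninjured cKO libraries and 147, 130, 181 and 142 CPM at 3 DPI. All 4 injured libraries were below all 4 uninjured ones, and the log2 fold change was -1.89 ± 0.23 (SE, n = 4 and 4, edgeR adjusted p = 0.000136). The exact permutation test of these 8 values gave p = 0.0286, the smallest that 4 against 4 allows. With the sample code as a term, the log2 fold change was -1.82 and the adjusted p 0.0718.

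Gas6 (chr8:13465374-13494490), a secreted ligand of the receptor kinases Tyro3, Axl and Mertk that promotes the uptake of dying cells and cell survival, is no member of the p53 list. It stood at 929, 1243, 1104 and 1836 CPM before injury and at 247, 263, 266 and 217 CPM after it. Every injured library was below every uninjured one, with a log2 fold change of -2.36 ± 0.25 (adjusted p = 5.79e-05). Of its receptors, Axl (0.30 ± 0.29) and Tyro3 (-0.66 ± 0.55) were not called, and Mertk, which macrophages also use, was not called with all 8 libraries but was called without replicate 3 (1.78, adjusted p = 0.000619), in the fit of all 16 libraries and with a stricter filter on low counts.

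Ccng1 (chr11:40748552-40755311), encoding cyclin G1, which takes part in the feedback on p53, was at 113, 187, 172 and 99.3 CPM in uninjured cells and at 51.2, 58.9, 59.3 and 63.6 CPM at 3 DPI. The groups did not overlap, but its log2 fold change of -1.29 ± 0.31 had an edgeR adjusted p of 0.0208 and was not called. It was called in 5 of 18 alternative fits, among them that without replicate 3 (-1.27, edgeR adjusted p = 0.00384). Mdm2, the ubiquitin ligase that degrades p53, was also lower in all injured libraries (87.3 to 126 CPM against 139 to 257 CPM) without being called (-0.91 ± 0.28, adjusted p = 0.0759).

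Among the other members, Eda2r, a death receptor of the TNF receptor family, was low in every injured library. Its levels were 134, 128, 128 and 124 CPM before injury and 21.2, 17.5, 15.2 and 23.7 CPM after it (-2.71 ± 0.33, adjusted p = 0.000164). Phlda3, an inhibitor of AKT signalling, went from 196, 276, 256 and 264 CPM to 44.9, 48.9, 13.8 and 56.1 CPM (-2.59 ± 0.37, adjusted p = 0.000489), the lowest value being replicate 3. Trp53inp1 (-2.83 ± 0.28), a p53 cofactor, and Btg2 (-3.02), an antiproliferative factor that is also an immediate early gene, fell too, and the sixth called member was Cd82, a surface tetraspanin (-1.87 ± 0.31). Members that were not called included the apoptosis gene Bax, at 16.3 to 59.0 CPM before and 1.38 to 36.2 CPM after injury (-0.84 ± 0.72, adjusted p = 0.659), and Gdf15, a stress-induced secreted factor, at 41.2 to 62.4 and 13.8 to 61.1 CPM (-0.24 ± 0.48, adjusted p = 0.884). Neither the 13 BCL2 family genes nor the 35 DNA damage signalling and repair genes tested held a member called by edgeR (3 and 2 genes at an unadjusted p under 0.05; limma called 2 lower in the BCL2 family, DESeq2 0, and both 0 in the repair list), while Bak1 of the BCL2 family was called higher without replicate 3 (1.58, adjusted p = 0.00444).

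The control response was set beside these values, and the difference between the responses was itself tested. In control MuSCs, 6 of 32 p53 targets tested rose and 4 fell (10.8% and 9.46% of all genes tested). Btg2 and Trp53inp1 were called lower there too, and their differences were not called (-0.06 ± 0.42 and -0.72 ± 0.37). On the common scale, the p53 sum was 2459 to 2948 CPM in uninjured and 1669 to 2131 CPM in injured control libraries. In cKO libraries it was 3747 to 4096 and 1480 to 1649 CPM. In the interaction test over 16 libraries, 3 of 16822 genes were called (0.0178%), namely Cdkn1a, Gas6 and Ccng1. All had a lower response in the cKO, and 0 were called higher (0%). At an unadjusted p under 0.05 there were 966 genes. In simulated counts this test recovered 1 of 100 genes with a difference of 1 on the log2 scale and 34 of 100 with a difference of 2. On the common scale Cdkn1a was at 87.3 to 125 CPM in uninjured control, 124 to 211 CPM in injured control, 432 to 579 CPM in uninjured cKO and 120 to 162 CPM in injured cKO libraries. The injured groups of the 2 genotypes overlapped, and the uninjured groups did not. The difference between the responses was -2.40 ± 0.32 on the log2 scale (adjusted p = 0.000944).

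Gas6 gave the same picture, at 204 to 339 CPM in uninjured control, 202 to 231 CPM in injured control, 810 to 1637 CPM in uninjured cKO and 203 to 242 CPM in injured cKO libraries. Its difference was -1.95 ± 0.32 (adjusted p = 0.0181). Ccng1 went up in control MuSCs, from 26.7 to 60.3 CPM to 86.5 to 102 CPM (1.21, adjusted p = 0.000144), and was lower in injured cKO libraries, from 88.5 to 167 CPM to 47.9 to 59.4 CPM, with a difference of -2.40 ± 0.40 (adjusted p = 0.0181). The Cdkn1a call held when any 1 of the 16 libraries was left out, with adjusted p between 2.98e-06 and 0.00822. Those of Gas6 and Ccng1 did not: their adjusted p ran from 0.000256 to 0.0843 and from 0.000277 to 0.0824, and 13 of the 16 omissions raised each of them above 0.02. The sample codes also cross genotypes and stages. With the code as a term, a fit added after the data were seen, the difference rested on 6 libraries and edgeR called 0 of 16822 genes (1009 at an unadjusted p under 0.05). The differences were then -2.30 ± 0.53 for Cdkn1a and -2.25 ± 0.51 for Gas6 (adjusted p = 0.717 for both) and -1.84 ± 0.72 for Ccng1 (adjusted p = 0.803). The response of Ccng1 was then -0.69 ± 0.50 in the cKO (adjusted p = 0.693) and 1.28 ± 0.45 in the control (adjusted p = 0.0581). Code and response can thus be separated in these 6 libraries alone.

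**Figure D1:**
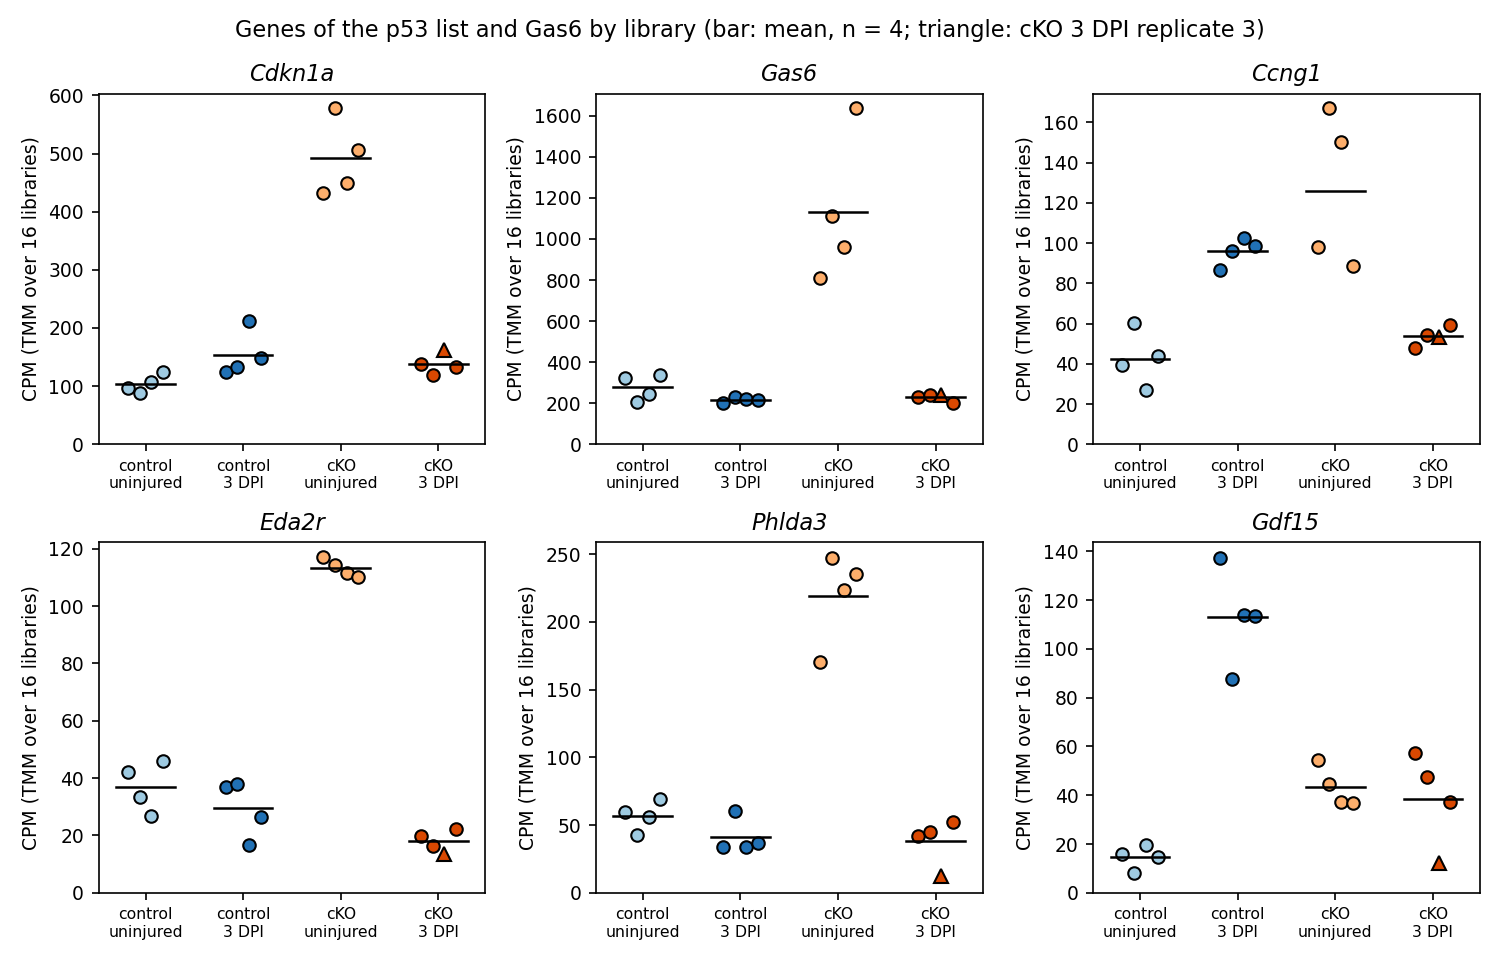
CPM of 6 genes in each of the 16 libraries, scaled over all of them, in 4 groups (horizontal bar, mean of 4 libraries; triangle, cKO 3 DPI replicate 3). Cdkn1a, Gas6, Eda2r and Phlda3 are highest in uninjured cKO libraries, Cdkn1a at 432 to 579 CPM, and Gdf15 is highest in injured control libraries.

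Without replicate 3, the interaction test called 4 genes with a higher response in the cKO (0.0227% of 17610) and 9 with a lower one (0.0511%). The 9 were Cdkn1a, Gas6 and Ccng1, the further p53 targets Eda2r (-2.31), Phlda3 (-1.90) and Gdf15 (-2.94), and Chodl, Exoc4 and Gria3. Gdf15 rose in control MuSCs, from 8.10 to 19.8 CPM to 87.5 to 137 CPM, whereas its groups overlapped in the cKO. Exoc4, a subunit of the exocyst, fell in cKO MuSCs (-2.23 ± 0.40, adjusted p = 0.00305) and was not called in control MuSCs (-0.24). Gria3, a glutamate receptor subunit, was at 107 to 161 CPM before and 17.5 to 57.9 CPM after injury in cKO MuSCs, and Chodl, a membrane lectin, at 330 to 615 CPM and then at 6.24, 16.3, 145 and 3.74 CPM, replicate 3 being the high one.

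The 4 genes with a higher response were all matrix genes. Col3a1, a fibrillar collagen, was at 846, 846, 1940 and 1422 CPM in uninjured and 3798, 1843, 1861 and 3222 CPM in injured cKO libraries, and fell from between 3729 and 5926 CPM to between 2181 and 3514 CPM in control MuSCs (difference without replicate 3, 2.00, adjusted p = 0.00588). Sparc (1.59), Col15a1 (1.73) and Col6a1 (1.67) likewise fell in control MuSCs. In cKO MuSCs, Sparc and Col3a1 were not called with all 8 libraries and were called higher without replicate 3, Col3a1 also in the fit of all 16 libraries and with a stricter filter on low counts, and Col15a1 (-0.33 ± 0.28) and Col6a1 (0.27 ± 0.48) were not called. With each genotype scaled on its own, the uninjured cKO libraries were below all uninjured control libraries for each of the 4 genes. Markers of fibroadipogenic progenitors summed to 2392 to 4096 CPM in uninjured cKO and 6397 to 9835 CPM in uninjured control libraries (common scale). At 3 DPI their sums were 4404 to 8380 and 5511 to 8185 CPM. The part of these cells in the 4 genes was not tested.

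Genes of MuSC identity fell in both genotypes. Of 24 genes of MuSC identity and surface, all tested, 11 fell and 1 rose (1.61% and 2.43% of all genes tested). Their median log2 fold change was -1.56, and their summed level went from between 4819 and 6091 CPM to between 1758 and 2404 CPM. Pax7 fell by 3.21 on the log2 scale (SE 0.41, adjusted p = 0.000231). Myf5, the myogenic factor already transcribed in quiescent MuSCs, went from 117, 118, 169 and 237 CPM to 22.5, 22.6, 35.8 and 22.4 CPM (-2.63 ± 0.36, adjusted p = 0.000347). No injured library reached an uninjured one for either gene, and neither interaction was called (Pax7 -0.16 ± 0.45; Myf5 0.10 ± 0.42).

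Gas1 (-3.12), a growth arrest protein, Tenm4 (-2.13), a teneurin of the cell surface, and Fgfr4 (-4.17), a fibroblast growth factor receptor of MuSCs, fell. The last of these was at 490 to 556 CPM in uninjured libraries and at 18.7, 58.9, 1.38 and 34.9 CPM in injured ones, the value of replicate 3 being 1 count. The member that rose was Sdc3, a syndecan, from between 80.4 and 143 CPM to between 415 and 704 CPM (2.36 ± 0.27). Without replicate 3, 14 members fell and 2 rose (3.3% and 5.16% of all genes tested). In control MuSCs, 17 fell and 2 rose (9.46% and 10.8% of all genes tested).

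Myod1 and Myog, the factors of myogenic commitment, did not pass the test. Of 9 myogenic regulatory and MEF2 factors tested, Myf5 fell and 0 rose. Without replicate 3, 1 rose and 1 fell, and in control MuSCs 2 rose and 2 fell. Myod1, which drives activation, was at 73.3, 47.6, 39.4 and 35.1 CPM before and 16.2, 38.8, 53.7 and 24.9 CPM after injury (-0.55 ± 0.48, adjusted p = 0.67). Myog, the factor of differentiation, was at 16.3, 20.9, 9.84 and 1.53 CPM and then at 6.24, 16.3, 27.6 and 37.4 CPM (0.82 ± 0.80, adjusted p = 0.709). The groups of both overlapped, as they did in control MuSCs. Of 30 sarcomere genes tested, a share near that over all genes was called (2.43% of all genes rose and 1.61% fell): Tpm3, a tropomyosin, rose (1.69 ± 0.25) and Des, the intermediate filament desmin, fell (-2.01 ± 0.27); without replicate 3, 1 of 34 rose and 2 fell.

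In the Notch pathway, 3 of 29 members tested fell and 0 rose: the receptors Notch3 (-2.85 ± 0.24) and Notch1 (-1.65 ± 0.34) and the target Heyl (-2.29 ± 0.27). The estimates of 14 members were above 0 and those of 15 below it (median -0.21), and 6 of 29 fell without replicate 3. Over all genes tested, 1.61% fell and 2.43% rose (3.3% and 5.16% without replicate 3). Notch3 was at 1395, 1063, 1351 and 1825 CPM and then at 173, 237, 183 and 187 CPM. It also counts among mural cell markers, whose sum went from between 2396 and 3334 CPM to between 1139 and 1470 CPM with no overlap. Of 10 mural markers tested, 7 had an estimate below 0 (median -0.77), 4 an unadjusted p under 0.05, and Notch3 alone was called; their part in the Notch values was not tested. Of 42 TGF-beta and BMP genes, 8 fell, among them the coreceptor Tgfbr3 (-2.94 ± 0.27) and the latency proteins Ltbp4 (-2.55 ± 0.25) and Ltbp1 (-1.75 ± 0.25), and 2 rose, Tgfb1 (2.23 ± 0.34) and Id2 (2.10 ± 0.47). The calls of Notch1 and of Id2 were each lost in 6 of 8 omissions of 1 library. With injured replicate 3 left out, 13 of 43 TGF-beta and BMP genes fell and 3 rose.

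Of 21 imprinted growth genes, 5 fell and 0 rose (7 and 1 without replicate 3), with Peg3 (-2.62 ± 0.29), Meg3 (-2.10 ± 0.25), Zim1 (-2.39 ± 0.35) and Gnas (-1.59 ± 0.27) leading. For this list and those named next, the shares over all genes tested were 1.61% falling and 2.43% rising (3.3% and 5.16% without replicate 3). The single rises without replicate 3, here and among the insulin-like growth factor genes, are near the last of these shares. Of 15 genes of insulin-like growth factor signalling, Igfbp5, a binding protein, and the adaptors Irs1 and Irs2 fell (-1.77, -1.76 and -1.31); 5 fell and 1 rose without replicate 3. The calls of Irs1 and Irs2 were lost in 3 and 5 of 8 omissions of 1 library. In the laminin and basement membrane list, 6 of 24 fell and 0 rose, including Lama2 (-2.39 ± 0.22), the laminin chain of muscle, at 591 to 720 CPM before and 114 to 135 CPM after injury, Dmd (-2.35 ± 0.31), which encodes dystrophin, and the perlecan gene Hspg2 (-1.53 ± 0.21).

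Heat shock and immediate early genes fell from high levels. The 24 genes of the heat shock list summed to 52700, 68510, 55570 and 52070 CPM in uninjured and to 7811, 7636, 4518 and 7331 CPM in injured cKO libraries. Of 23 tested, 7 fell and 1 rose, where 1.61% and 2.43% of all genes tested did. Hspa1a and Hspa1b, near-identical genes of the inducible HSP70 chaperone whose reads could be split between them by the quantification, fell (-4.10 ± 0.28 and -4.40 ± 0.30). Hspa1a was at 20070, 27200, 21820 and 21200 CPM before and at 1405, 1737, 781 and 1345 CPM after injury. Dnajb1 (-4.21 ± 0.26), their cochaperone, the small heat shock protein gene Hspb1 (-4.42 ± 0.58) and Hsph1 (-3.79 ± 0.47), a nucleotide exchange factor of HSP70, fell. Hsp90aa1, the inducible HSP90, fell by 2.21 (SE 0.24). Hspb1 stood at 72.4, 57.6, 1.38 and 51.1 CPM in the injured libraries, the third being replicate 3 with 1 count. The member that rose was Hsp90b1 (1.34 ± 0.25, lost in 3 of 8 omissions of 1 library), which encodes the HSP90 of the endoplasmic reticulum.

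Among immediate early genes, transcription factors and regulators induced within minutes of a stimulus, 8 of 25 fell and 0 rose (9 and 1 without replicate 3). The shares over all genes tested were 1.61% and 2.43% (3.3% and 5.16% without replicate 3). The sum of the list went from between 23360 and 32940 CPM to between 5980 and 7638 CPM. Egr1 was at 7204, 10150, 6264 and 7792 CPM and then at 507, 617, 254 and 691 CPM (-3.92 ± 0.32, adjusted p = 5.76e-06). Jun (-2.77 ± 0.22), Junb (-2.24 ± 0.22) and Fos (-2.26 ± 0.23) fell as well. Egr1 fell by 3.91 in control MuSCs, and the difference between the responses was called for none of these 4.

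The 250 bases before the start sites of the heat shock genes (RefSeq, GRCm38.p6) were searched on both strands for the letters GAANNTTC, an inverted pair of the repeat bound by heat shock factors. Of the 16 tested members with a promoter in the table, 6 held it (37.5%), against 6.24% of the 10938 tested genes with a promoter. A match is a description of the sequence only. The stretches around the matches in the promoters of Hspa1a (chr17:34972233-34972280, minus strand) and Hspb1 (chr5:135887782-135887849, plus strand) are shown with the matches in capitals, as members that fell and held a match; that of Hspa1b has the same letters as that of Hspa1a. The promoters of Dnajb1, Hsph1 and Bag3, which also fell, held no match.
Hspa1a: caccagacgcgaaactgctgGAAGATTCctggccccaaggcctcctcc
Hspb1: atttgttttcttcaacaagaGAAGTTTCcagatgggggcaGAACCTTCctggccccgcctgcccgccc

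**Figure D2:**
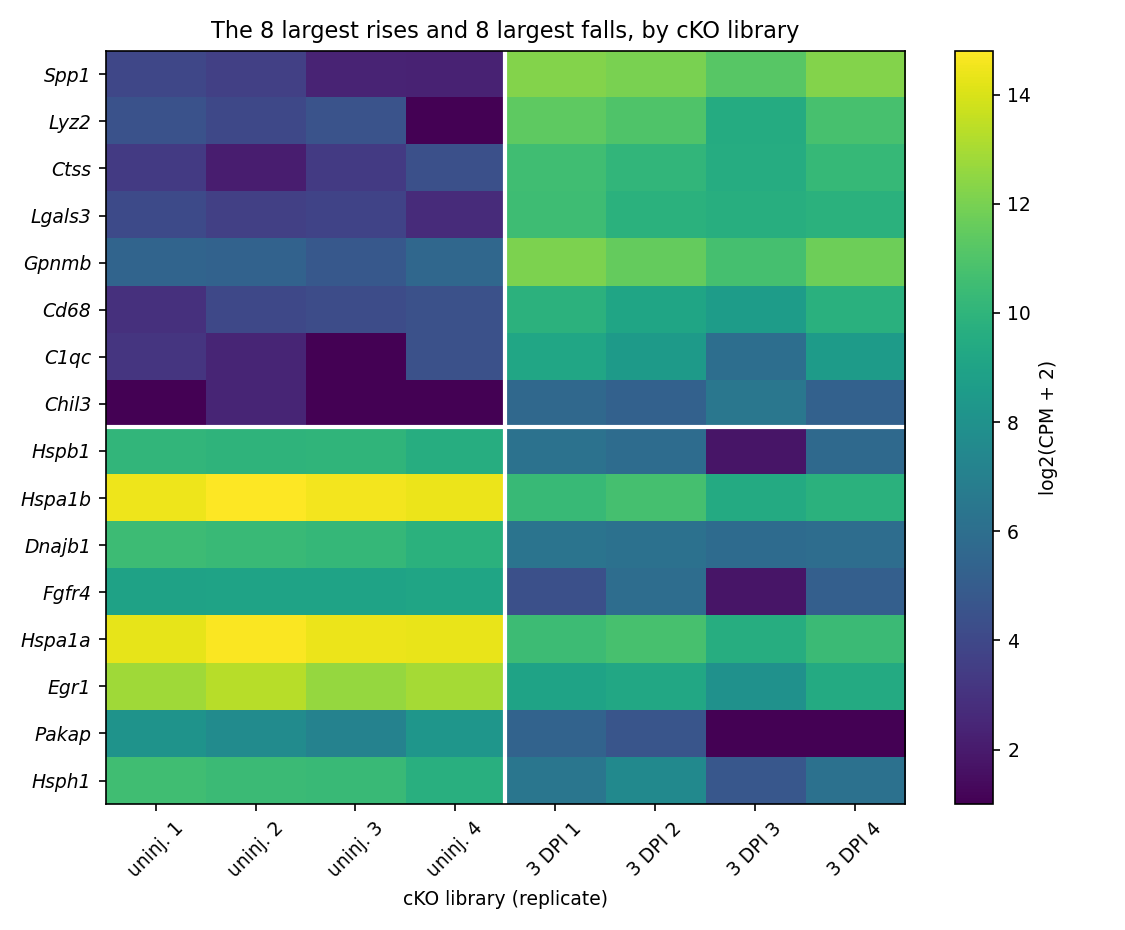
Level of the 8 called genes of largest rise (upper rows) and the 8 of largest fall (lower rows) in each cKO library, as log2(CPM + 2); the colour scale runs from dark (low) to yellow (high). The rises are mostly macrophage genes and the falls are led by heat shock genes; replicate 3 is the lowest of the injured libraries for Hspb1, at 1.38 CPM.

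Of 35 G2 and mitosis genes tested, 3 rose and 0 fell, where 2.43% of all genes tested rose: Mki67 (2.37 ± 0.25), which encodes the proliferation antigen Ki-67, Top2a (2.84 ± 0.42), a topoisomerase, and Cenpe (1.87 ± 0.40), a kinesin of the kinetochore whose call was lost in 7 of the 8 omissions of 1 library. Mki67 was at 74.7, 92.9, 75.4 and 93.2 CPM and then at 509, 322, 499 and 418 CPM, with no overlap. Of 39 DNA replication and S phase genes none was called, though 34 had an estimate above 0 (median 0.40) and 8 an unadjusted p under 0.05; limma called 3 and DESeq2 0 of this list. Pcna, the clamp of the replication fork, was at 25.8 to 40.6 CPM before and 52.6 to 92.3 CPM after injury (1.22 ± 0.39, adjusted p = 0.0937).

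Control MuSCs had 22 of 45 replication genes and 34 of 41 mitosis genes called higher (10.8% of all genes tested rose and 9.46% fell in the control), with median log2 fold changes of 1.10 and 1.65 against 0.40 and 1.02 in the cKO. For no gene of either list was the difference between the responses called, and its median was -0.49 over 46 replication genes and -0.41 over the mitosis genes. Without replicate 3, 3 replication genes (Mcm3, Mcm6 and Pcna) of 40 and 6 mitosis genes of 38 rose in the cKO (5.16% of all genes tested). The summed level of 66 replication-dependent histone genes, many of them near copies of each other, was 382 to 478 CPM in uninjured libraries and 1522, 1169, 464 and 1004 CPM in injured replicates 1 to 4, so replicate 3 lay within the uninjured range. Of 12 histone genes tested, Hist1h1d was called, and 10 of 21 rose without replicate 3.

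The largest rises were those of macrophage and myeloid genes. Of 37 members of the list, 35 were tested, 28 rose and 0 fell (2.43% and 1.61% of all genes tested), with a median log2 fold change of 4.05. Members low in uninjured cells passed the filter on low counts only through the injured libraries. Their sum was 586, 490, 626 and 460 CPM in uninjured libraries and 22850, 17130, 10200 and 18060 CPM in injured ones, lowest in replicate 3. Lyz2, encoding lysozyme M, was at 20.4, 13.9, 21.3 and 0 CPM and then at 2679, 2082, 723 and 1773 CPM (7.01 ± 0.63, adjusted p = 1.38e-05). All injured libraries exceeded all uninjured ones, and in control MuSCs Lyz2 rose by 8.77 (interaction -1.65 ± 0.75, adjusted p = 0.845).

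Spp1, which encodes osteopontin, a secreted phosphoprotein of macrophages and other cells, had the largest log2 fold change of the genes named, 8.97 ± 0.47. It was at 13.6, 10.5, 3.28 and 3.06 CPM and then at 4874, 4112, 2402 and 4782 CPM. Ctss (6.97 ± 0.46), a cathepsin of antigen-presenting cells, Lgals3 (6.57 ± 0.37), a galectin, Gpnmb (6.33 ± 0.36), a glycoprotein of phagocytes, Cd68 (5.63 ± 0.42) and the complement gene C1qc (5.52 ± 0.77) followed. Chil3, a chitinase-like protein of macrophages, was at 0, 3.48, 0 and 0 CPM and then at 48.7, 36.3, 86.8 and 37.4 CPM. Adgre1, which encodes F4/80, was at 278, 179 and 158 CPM in injured replicates 1, 2 and 4 and at 4.13 CPM in replicate 3, within the uninjured range of 1.16 to 24.6 CPM. The summed level of the neutrophil list was 132, 114, 139 and 127 CPM before and 237, 362, 237 and 166 CPM after injury, with no overlap. Of its 14 members, 9 were not tested, and the 5 tested all had an estimate above 0 (median 0.61). Of these, 0 were called by edgeR (1 at an unadjusted p under 0.05), against 1 of 7 without replicate 3, and DESeq2 called 1. Of 4 lymphocyte genes tested 0 were called (0 at an unadjusted p under 0.05), and the sum of that list overlapped, at 101 to 202 and 115 to 389 CPM. S100a8 and S100a9 stayed at 0 to 11.3 CPM in all 8 libraries.

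The letters GAGGAAG, the core bound by the myeloid factor PU.1, stood in the 250 bases before the start of 7 of 27 tested myeloid genes with a promoter in the table (25.9%) and of 13% of all tested genes with one. They are shown in capitals, or as their reverse complement CTTCCTC, for Spp1 (chr5:104434978-104435024, plus strand) and C1qc (chr4:136893082-136893128, minus strand), as members that rose and held a match. The other of the 2 promoters of Spp1 held none, nor did those of Lyz2, Ctss, Lgals3, Gpnmb, Cd68 and Chil3.
Spp1: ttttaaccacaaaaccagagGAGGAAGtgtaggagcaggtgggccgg
C1qc: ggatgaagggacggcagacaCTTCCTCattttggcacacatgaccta

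Genes of the lysosome rose beside the myeloid genes. Of 46 tested, 18 rose and 0 fell (median 1.30), where 2.43% and 1.61% of all genes tested did. Their sum went from 2506, 2593, 2633 and 2906 CPM to 27480, 20450, 10990 and 18590 CPM. It was highest in injured replicate 1 and lowest in replicate 3, like the myeloid sum. That order is not particular to these lists: the sums of the cytosolic ribosomal protein, proteasome and glycolysis lists had it too. The protease genes Ctsd (5.04 ± 0.32), Ctsb (4.65 ± 0.36) and Ctsl (3.74 ± 0.31) and the sphingolipid activator gene Psap (4.15 ± 0.29) led. Ctsd was at 101, 91.7, 102 and 101 CPM in uninjured and at 4644, 3530, 1735 and 3045 CPM in injured cells. The part of the myeloid transcripts in this rise was not tested.

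The letters TCACGTG, the E-box core of the CLEAR element bound by TFEB, or the reverse complement CACGTGA (the 2 overlap in TCACGTGA), stood before the start of 11 of 38 tested lysosomal genes with a promoter in the table (28.9%), against 5.47% of all tested genes with one. The promoters of Lgmn (chr12:102439116-102439162, minus strand) and Lamp1 (chr8:13159079-13159160, plus strand), an asparaginyl endopeptidase and a lysosomal membrane protein that both rose, are given as members with 1 match and with several. The other of the 2 promoters of Lgmn held none.
Lgmn: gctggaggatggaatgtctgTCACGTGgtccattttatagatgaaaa
Lamp1: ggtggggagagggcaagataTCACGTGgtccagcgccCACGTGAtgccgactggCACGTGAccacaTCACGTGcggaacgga

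**Figure D3:**
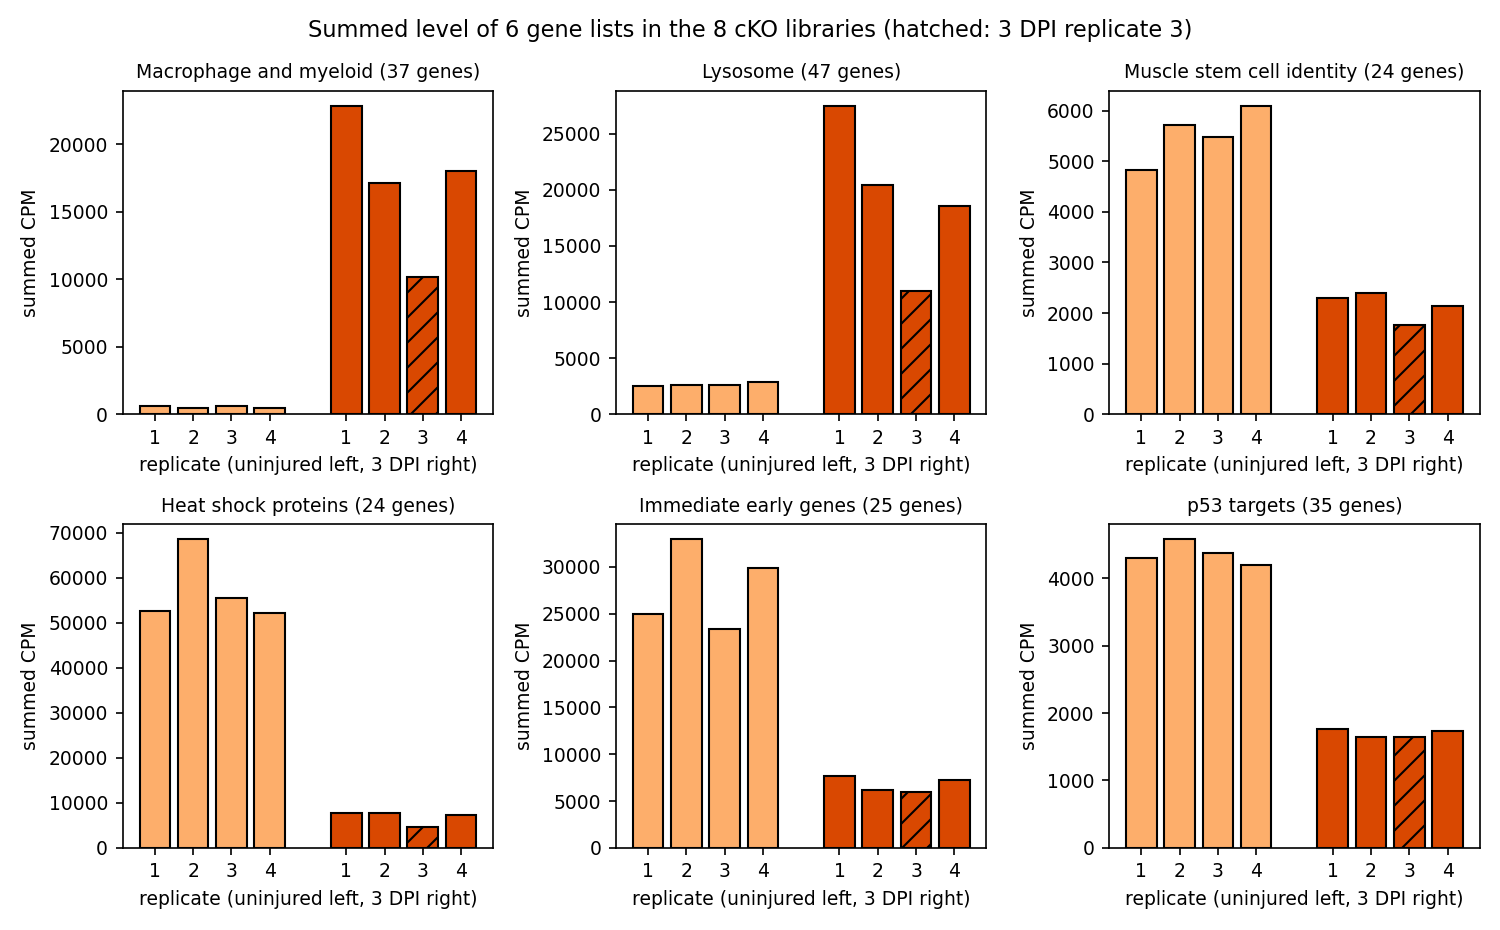
Summed CPM of 6 gene lists in each of the 8 cKO libraries (uninjured on the left, 3 DPI on the right, 1 bar per library, 3 DPI replicate 3 hatched). Myeloid and lysosomal sums rise in all 4 injured libraries, least in replicate 3 (10200 and 10990 CPM), and the other 4 sums are lower in all 4 injured libraries than in any uninjured one.

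Antigen presentation and chemokine genes rose too. Of 16 MHC class I and II presentation genes tested, 7 rose and 0 fell, among them B2m (2.74 ± 0.32), the light chain of class I, H2-D1 (1.81 ± 0.24), and the class II genes H2-Eb1 (4.05 ± 0.51) and Cd74 (4.51 ± 0.63). Of 39 chemokine genes, 15 were tested, and those low in uninjured cells passed the filter on low counts only through the injured libraries. Among the 15, 6 rose and 0 fell, where 2.43% and 1.61% of all genes tested did. They included Ccl3 (5.07 ± 0.66) and Ccl9 (2.65 ± 0.46), attractants of monocytes, and Cxcl2 (5.35 ± 0.64), which attracts neutrophils. Cxcl16 (2.44 ± 0.52), the ligand of CXCR6, was another, and its call was lost in 6 of 8 omissions of 1 library. Of 20 tested, 10 rose without replicate 3. Both lists hold genes that macrophages transcribe. The summed myeloid level rose between the stages too, highest in injured replicate 1, whereas the MHC sum was highest in replicate 4. The part of myeloid transcripts in these values was not tested.

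Of 35 interferon-stimulated genes tested, 3 rose and 0 fell: Ifit3 (2.68 ± 0.44), which binds foreign RNA, the antiviral GTPase Mx1 (3.35 ± 0.61), and the transcription factor Irf7 (2.19 ± 0.41), whose call was lost in 6 of 8 omissions of 1 library. Without replicate 3, 12 of 36 rose, and in control MuSCs 28 of 36. Over all genes tested, 2.43% rose with all libraries, 5.16% without replicate 3 and 10.8% in the control. The summed myeloid level also rose from uninjured to 3 DPI, but the order of the injured libraries differed. The interferon sum was 2410, 1749, 1929 and 2570 CPM in injured replicates 1 to 4, highest in replicate 4. The myeloid sum was highest in replicate 1 and lowest in replicate 3. The part of myeloid transcripts in the interferon values was not tested. Irf7 rose by 4.31 in control MuSCs, and the difference of -2.01 ± 0.61 was not called (unadjusted p = 0.003). The interferon-stimulated response element was searched on both strands as 2 copies of GAAA with any 2 bases between them. It stood before 10 of 24 tested members with a promoter (41.7%) and before 3.19% of all tested genes with one. The promoter of Irf7 held no match, and 2 matches lie in that of Ifit3 (chr19:34583353-34583436, plus strand).
Ifit3: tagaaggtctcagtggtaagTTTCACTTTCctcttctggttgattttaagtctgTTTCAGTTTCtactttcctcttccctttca

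Genes of iron and heme handling, a task of cells that clear debris, were among the antioxidant genes that rose. Ftl1, the ferritin light chain, was at 141, 118, 146 and 144 CPM and then at 4458, 3075, 2302 and 3297 CPM (4.58 ± 0.27). Fth1, the heavy chain (2.32 ± 0.29), and Hmox1, heme oxygenase (3.59 ± 0.47), rose, and Gpx3, a secreted glutathione peroxidase, fell (-2.98 ± 0.30). In all, 5 of 26 members rose and 2 fell (2.43% and 1.61% of all genes tested). The myeloid sum rose between the stages too, and its part in these values was not tested.

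Several matrix genes rose. Of 31 matricellular and elastic fibre genes tested, 7 rose and 1 fell (11 and 1 without replicate 3). Over all genes tested, 2.43% rose and 1.61% fell (5.16% and 3.3% without replicate 3). The single falls in this list and among the collagens are near these shares. Fn1, fibronectin, went from 250, 232, 298 and 174 CPM to 3120, 2130, 1371 and 2851 CPM (3.31 ± 0.30), and Tnc, tenascin C (2.74 ± 0.27), Postn, periostin (2.73 ± 0.31), and Thbs1, thrombospondin (2.60 ± 0.36), rose. Of 43 collagen genes, 4 rose, among them Col1a1 (1.72 ± 0.32), Col1a2 (1.74 ± 0.31) and Col6a3 (1.74 ± 0.32), and Col5a3 fell (-1.53 ± 0.30); without replicate 3, 9 of 44 rose and 1 fell. Omitting 1 library ended the call of Col1a1 in 5 of 8 cases, of Col6a3 and Col5a3 in 4 and of Col1a2 in 1. Col1a1 and Col1a2 are also the 2 called markers of 16 fibroadipogenic progenitor genes tested, the summed level of whose list was 3046, 2673, 4693 and 3800 CPM before and 8948, 4785, 5465 and 7880 CPM after injury, and 5 of 18 of whose members rose without replicate 3. The part of these cells in the collagen values was not tested. Of 22 metalloproteinase and inhibitor genes tested, 1 rose, Mmp12, the macrophage elastase (3.52 ± 0.47). The 2 that fell were Mmp2 (-2.01 ± 0.25) and Adamts10 (-2.01 ± 0.27). Without replicate 3, 3 of 24 rose and 5 fell.

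Of 41 integrin and focal adhesion genes, 5 rose and 3 fell (9 and 3 without replicate 3). Over all genes tested, the shares were 2.43% and 1.61% (5.16% and 3.3% without replicate 3). The fibronectin receptor chain Itga5 (1.66 ± 0.27), Itgb5 (2.05 ± 0.33) and the leukocyte chain Itgb2 (3.41 ± 0.58) rose, the last to 459, 286, 38.6 and 459 CPM in injured replicates 1 to 4, whereas Tln2, a talin, fell (-2.12 ± 0.21). Of 16 endothelial genes, Cd36 and Fabp4, fatty acid carriers that macrophages also express, rose (2.51 ± 0.46 and 1.86 ± 0.38). Omitting 1 library ended these calls in 4 and 6 of 8 cases. The other 14 were not called, but 14 of the 16 estimates were above 0 (median 0.51), and the sum of the list went from between 1030 and 1659 CPM to between 1818 and 2570 CPM with no overlap. Pecam1, which encodes CD31, was at 62.4 to 90.6 CPM before and 129 to 143 CPM after injury.

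In metabolism, 5 of 24 glycolysis genes rose and 0 fell (8 of 25 rose without replicate 3). With all libraries they were Pgam1 (2.69 ± 0.31), Tpi1 (2.53 ± 0.34), Pkm (1.43 ± 0.27), Eno1 (1.58 ± 0.31) and Aldoa (1.46 ± 0.31). Leaving out 1 library ended the call of Aldoa in 7 of 8 cases, of Eno1 in 5 and of Pkm in 1 (injured replicate 1). In cholesterol synthesis, 2 of 23 fell, among them Srebf2, the transcription factor of the pathway (-1.47 ± 0.25). Over all genes tested, 2.43% rose and 1.61% fell (5.16% and 3.3% without replicate 3). In the endoplasmic reticulum, the chaperone gene Calr (2.13 ± 0.27) and the disulfide isomerase gene Pdia4 (1.55 ± 0.31, lost in 4 of 8 omissions) rose, and Ppp1r15a, which restarts translation after stress, fell (-1.53 ± 0.25). Of the list of stress and unfolded protein response genes, 3 of 29 rose with replicate 3 and 9 of 31 without it, and 1 fell in both.

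Of 80 cytosolic ribosomal protein genes tested, 1 fell and 0 rose, where 1.61% of all genes tested fell (without replicate 3, 4 of 82 and 3.3%). In control MuSCs, 43 of 82 fell and 1 rose (9.46% and 10.8% of all genes tested). The control fit had a biological coefficient of variation of 0.276 and the cKO fit 0.523, so these counts are no test of a difference between genotypes. The median log2 fold change was -0.62 in the cKO and -0.61 in the control, 71 cKO estimates were below 0, and 26 cKO members had an unadjusted p under 0.05; for no member was the difference between the responses called. Their sum spread widely within the cKO groups, from 13420 to 23080 CPM before and from 8726 (replicate 3) to 16640 CPM after injury. Eif4a2, a helicase of translation initiation, fell (-1.94 ± 0.33) as the single call of 62 translation factors (2 rose and 2 fell without replicate 3). Atp5e, a subunit of ATP synthase, rose (2.69 ± 0.63) as that of 59 respiratory chain genes, where 2.43% of all genes tested rose, against 6 of 66 without the library (5.16% of all genes). The Atp5e call was lost in 6 of the 8 omissions of 1 library. No gene of the 41 mitochondrial ribosomal proteins or of the 40 proteasome genes tested was called by edgeR. At an unadjusted p under 0.05 these lists held 2 and 4 genes, DESeq2 called 1 gene of each, and limma called 2 proteasome genes. Those of smallest p were Mrpl33 (2.42 ± 0.73), Mrpl40 (1.77 ± 0.64), Psmd2 (1.01 ± 0.28) and Psmd8 (1.49 ± 0.45). Without replicate 3, 5 proteasome genes rose.

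Among nuclear regulators, Dnmt1, the maintenance DNA methyltransferase, rose from between 59.0 and 93.2 CPM to between 226 and 313 CPM (1.77 ± 0.26), the single call of 28 chromatin modifiers (2.43% of all genes tested rose; without replicate 3, 1 rose and 2 fell). The nuclear long noncoding RNAs Malat1 (-1.04 ± 0.20, lost in 5 of 8 omissions of 1 library) and Neat1 (-1.56 ± 0.26) fell, being among 3 of 11 long noncoding RNAs that did (5 of 12 fell and 1 rose without replicate 3), as did Dag1 (-1.83 ± 0.26), which encodes the dystroglycan that links laminin to dystrophin. Chaf1a, a chaperone of new histones and the replication gene of smallest p, was at 29.9 to 53.5 CPM before and at 74.9, 71.4, 187 and 68.6 CPM after injury (adjusted p = 0.0645). Bcl2, which protects from apoptosis, was at 89.4 to 113 CPM and then at 17.5 to 68.6 CPM (-1.06 ± 0.39, adjusted p = 0.164), and Bcl2l11, its antagonist BIM, had a log2 fold change of 0.75 ± 0.34. In the damage response, Trp53bp1 (-0.74 ± 0.26) and Palb2 (1.49 ± 0.63) were not called, and Palb2 was at 169.5 CPM in replicate 3 against 26.2 to 58.9 CPM in the other injured libraries.

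The neutrophil, lymphocyte, Schwann cell, erythroid, olfactory receptor and sex-linked lists held no call by edgeR with all 8 libraries (1 neutrophil gene at an unadjusted p under 0.05, 0 in the others; DESeq2 called 1 neutrophil gene and limma 1 receptor), and members of small p are given as values. Csf3r, a neutrophil gene, was at 10.7 to 32.5 CPM before and 46.9 to 126 CPM after injury, with no overlap (1.88 ± 0.49, adjusted p = 0.0374), and was called without replicate 3 (2.09, adjusted p = 0.00038). The neutrophil gene Mpo (1.35 ± 0.73), the lymphocyte gene Cd8a (0.97 ± 0.66), and the Schwann cell genes Mag (0.91 ± 0.53) and S100b (0.72 ± 0.70) were not called. The erythroid genes Hba-a1 (0.11 ± 0.89) and Slc4a1 (0.10 ± 0.51) changed sign with the processing. The receptors Olfr56 (1.46 ± 0.91) and Olfr613 (1.35 ± 0.86) and the Y-linked genes Uty (-0.99 ± 0.54) and Kdm5d (-0.80 ± 0.42) overlapped between the groups or missed the threshold. Replicate 3 had the highest injured level of Cd8a, Mpo and Olfr613, at 67.5, 59.2 and 68.9 CPM.

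**Figure D4:**
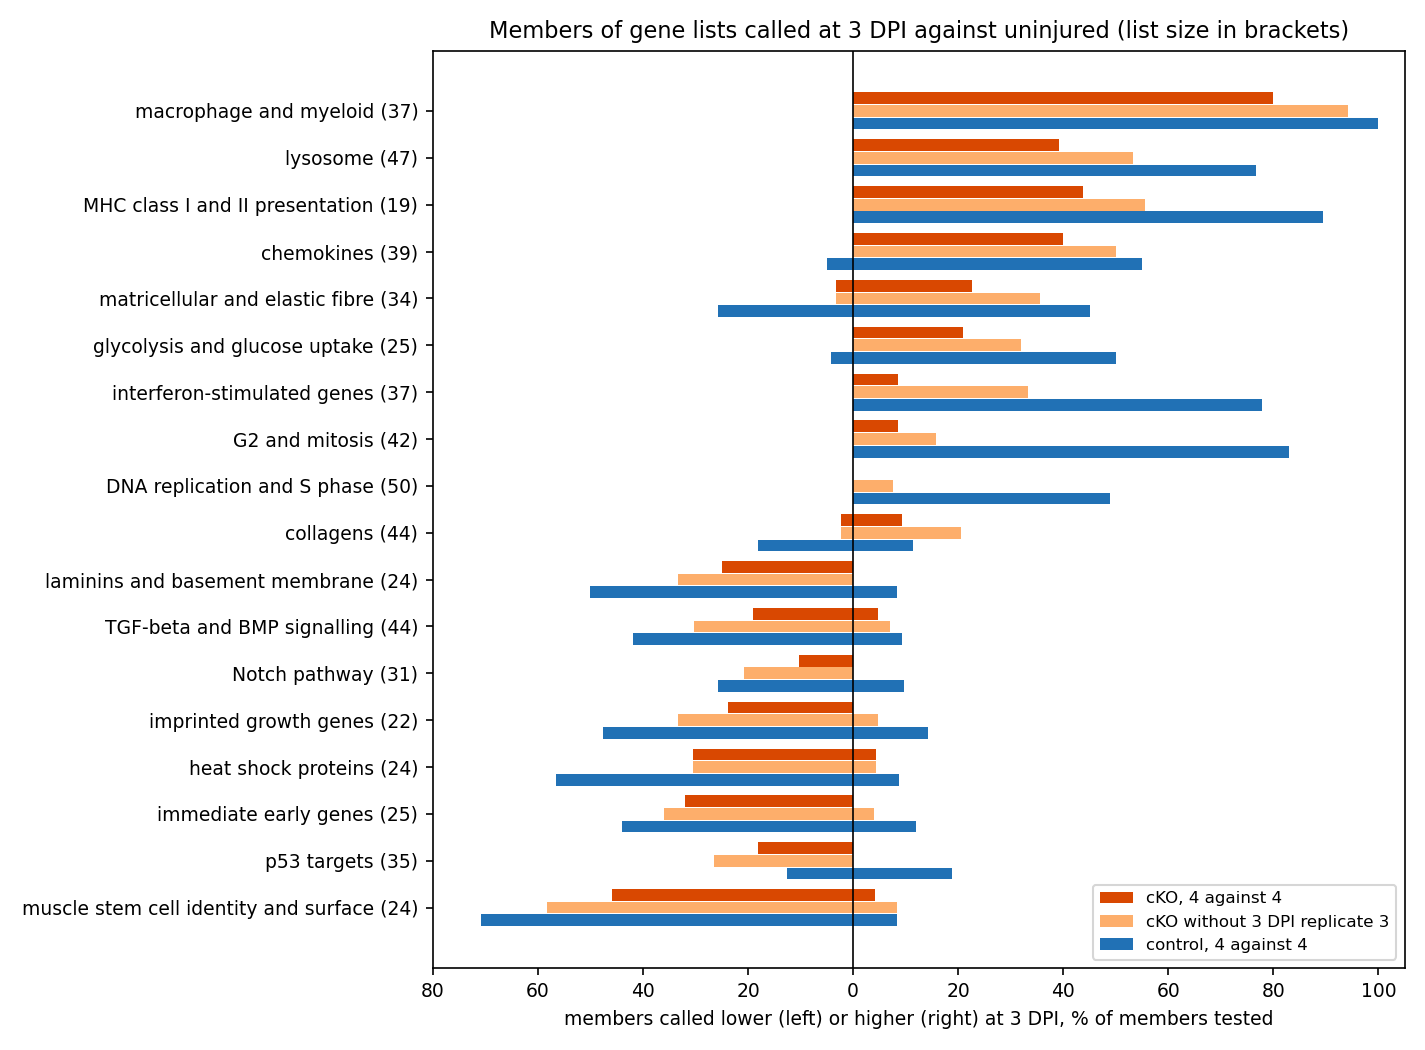
Share of tested members of 18 gene lists that were called higher (bars to the right) or lower (bars to the left) at 3 DPI against uninjured, in percent, for the cKO with all libraries, the cKO without 3 DPI replicate 3, and the control; list sizes in brackets. Myeloid genes lead on the right in all 3 comparisons. Of the p53 list, 6 of 33 were called lower and 0 higher in the cKO (1.61% and 2.43% of all genes tested). In the control, 6 of 32 were called higher and 4 lower (10.8% and 9.46% of all genes tested).

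The genes called in the cKO were for the most part called in the control. The 2 comparisons share no library. Of the 589 cKO calls, 347 higher and 221 lower ones were called in the same direction in control MuSCs, 96.4% of the cKO calls, and 0 were called in the opposite direction. These genes were 18.3% of the 3104 control calls. The biological coefficient of variation was 0.276 in the control and 0.523 in the cKO fit, so the 2 fits differ in how small a change they can call, and the smaller number of cKO calls is not itself a test of a weaker response.

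**Figure D5:**
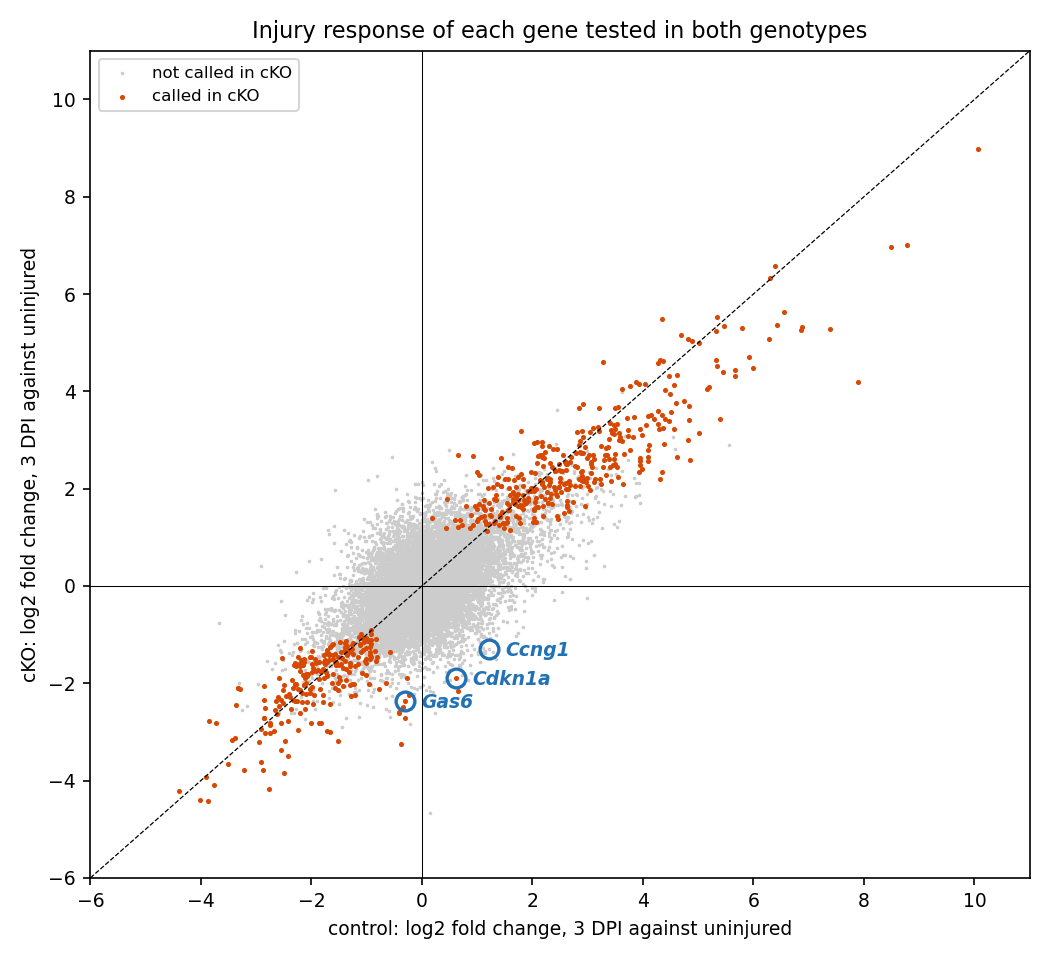
Log2 fold change from uninjured to 3 DPI for each gene tested in both genotypes, control on the horizontal and cKO on the vertical axis (orange, called in cKO; dashed line, equal change; blue rings, the 3 genes with a different response). Called genes have the same sign in both genotypes for the most part, and Cdkn1a and Ccng1 have estimates above 0 in control and below 0 in cKO (Cdkn1a 0.61 and -1.89, the former not called).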

How the data were processed

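RNA from sorted MuSCs was sequenced after ribosomal RNA depletion with a stranded total RNA kit that carries molecular identifiers; whether reads were collapsed by them is not given in the sources used here. The deposited tables hold estimated counts per gene that the authors made with Salmon 1.5.2; their processing notes also name Trim Galore 0.6.7, STAR 2.6.1d and GRCm38 (mm10). One table holds estimated counts and the other the same counts rescaled by the authors; the first was used, rounded to whole numbers (24411 genes), and the second served as an alternative. All 16 columns were mapped by name. Totals were 620406 to 1351095 per library.

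Genes were filtered by filterByExpr, scaled by TMM and tested with edgeR 4.0.16 (robust quasi-likelihood) in R; a gene was called at a Benjamini-Hochberg adjusted p under 0.02 and a change over 1.5 times. SE is the log2 fold change divided by the root of F. CPM are scaled by TMM within the 8 libraries of a genotype unless a common scale is named. The interaction was fitted on all 16 libraries. Single values of 4 against 4 libraries were tested by exact two-sided permutation (smallest p 0.0286). No 2 libraries agreed within sampling noise. The gene lists (49) and the libraries compared were chosen with earlier results of these data known; genes were named by rule (markers, the 8 largest rises and falls among called genes without overlap whose log2 CPM averaged 4 or more, up to 4 called members of smallest p per list, for lists with no call the 2 of smallest p, the 6 smallest interaction p), and further genes named (Mdm2, Bax, Bak1, Cd82, Axl, Tyro3, Mertk, Id2, Mcm3, Mcm6, Aldoa, Lamp1, Lgmn, Adgre1, Vcam1, Itga7, Ptprc, Itgam, Pecam1, S100a8 and S100a9, and genes called in the difference between the responses without replicate 3) were chosen after their values were seen. limma 3.58.1, DESeq2 1.42.0, other scalings and filters, a replicate block and leaving out each library were alternatives. Some genes named by these rules are not reported here. The fits were tested on simulated counts. Of 100 genes changed by 1 on the log2 scale, the cKO fit recovered 3, the control fit 62 and the interaction 1. Of 100 changed by 2, they recovered 62, 100 and 34. False calls among unchanged genes numbered 2, 8 and 0. A gene that was not called is thus not shown to be unchanged. Sequences are from RefSeq, positions from GENCODE M21 (GRCm38).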

Additional observations from a re-analysis of the deposited data

Results flagged for a closer look

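The difference between the injury responses of cKO and control MuSCs was called for Cdkn1a (-2.40 on the log2 scale), Gas6 (-1.95) and Ccng1 (-2.40), by the interaction test over all 16 libraries; with the sample code as a term none of the 3 was called by edgeR (adjusted p of 0.717, 0.717 and 0.803).

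In 26 of 340 groups of 4 values, 1 library lay far from the other 3 by Dixon's test at the 95% level, which chance alone does in about 1 of 20 groups. Of these, 9 were replicate 3 of the cKO 3 DPI group: it was high for Myf5 (35.8 CPM), Chaf1a (187 CPM), Mpo (59.2 CPM), Cd8a (67.5 CPM), Olfr613 (68.9 CPM), Chodl (145 CPM) and Gria3 (57.9 CPM), and low for Mcm6 (20.7 CPM) and the heat shock sum (4518 CPM). Among the other injured libraries, replicate 1 was far out for Lgals3 (1438 CPM), replicate 2 for Irf7 (50.1 CPM) and replicate 4 for Adamts10 (140.9 CPM).

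In the uninjured group, replicate 1 was far out for Fabp4 (19 CPM), Tpi1 (42.1 CPM), Pkm (184.6 CPM) and Chodl (329.9 CPM). Replicate 2 was for Chil3 (3.48 CPM, the others at 0), Ifit3 (33.7 CPM), Bcl2 (89.4 CPM), Ctsd (91.7 CPM) and Ftl1 (118 CPM). Replicate 3 was for Ccl9 (26.2 CPM), and replicate 4 for Chaf1a (53.5 CPM), Mag (9.16 CPM), Tln2 (687 CPM) and Mcm6 (30.6 CPM).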

How the results depend on the processing

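The number of genes called in the cKO injury response depended on the fit. Genes higher, 354 by edgeR, were 633 by limma, 568 by DESeq2, 721 with all 16 libraries in 1 fit, 174 in the rescaled table and 15 with the sample code as a term; genes lower, 235, were 618, 426, 483, 109 and 22. Leaving out 1 library gave 214 to 803 higher and 134 to 513 lower; the highest values were without injured replicate 3, and each other omission gave fewer calls than all 8 libraries. In the control, 1652 higher genes became 1088 in the rescaled table, and with the sample code, a fit added after the data were seen, 812 were higher and 673 lower (from 1452). For the difference between the responses, 0 higher and 3 lower became 28 and 51 by limma, 9 and 15 by DESeq2, 2 and 6 with at least 10 counts in every library, lower ones 1 in the rescaled table, and 0 and 0 with the sample code (added likewise; 1009 genes at an unadjusted p under 0.05); leaving out 1 library gave 0 to 4 higher and 1 to 9 lower. The cause of these differences was not tested.

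Replicate numbers did not pair the libraries: deviations of same-numbered libraries correlated at -0.0699 to -0.0197. With the replicate block, 220 genes were higher and 144 lower in the cKO, 362 of them among the 589, and the difference between the responses was called for 1 gene; the adjusted p of Gas6 and of Ccng1 was then 0.0503.

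Scaling by library size alone moved the median change over all genes (log2) to 0.13, the filter of 10 counts to 0.12 and the block to -0.13, from 0.0071. The share of calls that were higher, 60.1%, was 50.6% by limma and 40.5% with the sample code. Of 117 named genes called, 21 kept their call in all alternatives run, and 95 lost it with the sample code.

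A change of sign occurred in 6 named genes, none of them called. With the sample code, Myod1 was at 0.16, Mcm3 at -0.65, Col6a1 at -0.11 and Slc4a1 at -0.042. With the block, Col6a1 was at -0.074 and Slc4a1 at -0.040, and by limma Slc4a1 was at -0.020. Over the omissions of 1 library, Slc4a1 ranged from -0.31 to 0.40, Hba-a1 from -0.36 to 0.90, Col6a1 from -0.12 (without injured replicate 4) to 0.66 and Gdf15 from -0.49 to 0.082 (without injured replicate 3). Totals of 665757 to 976957 counts limit what can be said of genes at a few CPM.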
